A study of Rattus norvegicus with 15 samples.

Results

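The genes described here are 37 genes of microglia and macrophages, followed through 15 RNA-Seq libraries of whole rat retina. They were chosen by symbol as homeostatic, disease-associated and phagocytic myeloid genes, and each had to reach a mean rlog value of 3.32, the log2 of 10, over the 15 libraries. All 37 were found and all 37 passed, among the 15424 genes of 20375 listed that reached this level. An rlog value is a log2 expression value, corrected for library size and pulled towards the mean of the gene, so differences of poorly expressed genes are understated. Mean rlog values of the members ran from 4.77 for Msr1 to 15.3 for Apoe. Values are compared within a gene, since they are not corrected for gene length.

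Retinas came from wild type Sprague-Dawley rats that the labels give as 12 weeks old, with 3 libraries in each of 5 groups and a collection at day 31. The NT group was healthy and received neither cells nor toxin. The Sham, MSC, MSCEPO and DPSC groups all received sodium iodate at 40 mg/kg, an oxidant that injures the retinal pigment epithelium and, with it, the photoreceptors. Sham eyes had an intravitreal injection of vehicle, MSC eyes of human mesenchymal stem cells from Wharton's jelly, MSCEPO eyes of such cells made to express erythropoietin by a lentiviral vector, and DPSC eyes of cells known here only by this abbreviation of the labels. The injections came before the sodium iodate. Rats with xenografts also received dexamethasone at 2 mg/kg before surgery and cyclosporin at 10 mg/kg each day after it, so in every cell group the graft and the immunosuppressants came together and cannot be told apart. The labels do not say whether replicates were separate animals, and p-values measure the spread between these libraries.

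Microglia are the resident macrophages of the retina. In the healthy tissue they survey the inner layers with fine processes, held in check by fractalkine and CD200 from neurons and kept alive by ligands of the CSF1 receptor. After photoreceptor injury they move towards the outer retina, engulf debris and switch on phagocytic, lysosomal and lipid-handling genes, and blood monocytes can enter and become macrophages that share most of this expression. No member belongs to microglia alone: Cd53, Laptm5, Irf8 and Fcgr2b are also made by B cells, Apoe and Mertk by Müller glia and pigment epithelium, and Gpnmb by pigment cells. In whole tissue, more cells of a type and more RNA per cell cannot be told apart.

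The whole set was lowest in NT, higher in Sham, and highest after MSC injection. The mean of the 37 members, as log2 above the NT mean, was 0.11, 0.16 and -0.26 in the NT libraries, 0.81, 1.07 and 0.70 in Sham, 2.81, 1.75 and 1.30 in MSC, 1.86, 1.5 and 0.97 in MSCEPO, and 0.80, 1.69 and 0.62 in DPSC. Every Sham library lay above every NT library and every MSC library above every Sham library, while MSCEPO replicate 3 and DPSC replicates 1 and 3 stayed within the range of Sham or below it. NT had the lowest group mean in 35 members and MSC the highest in 34, and 24 members shared the full order NT, Sham, DPSC, MSCEPO, MSC. Tmem119 was highest in MSCEPO, Cd163 in DPSC and Lpl in NT.

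**Figure D1:**
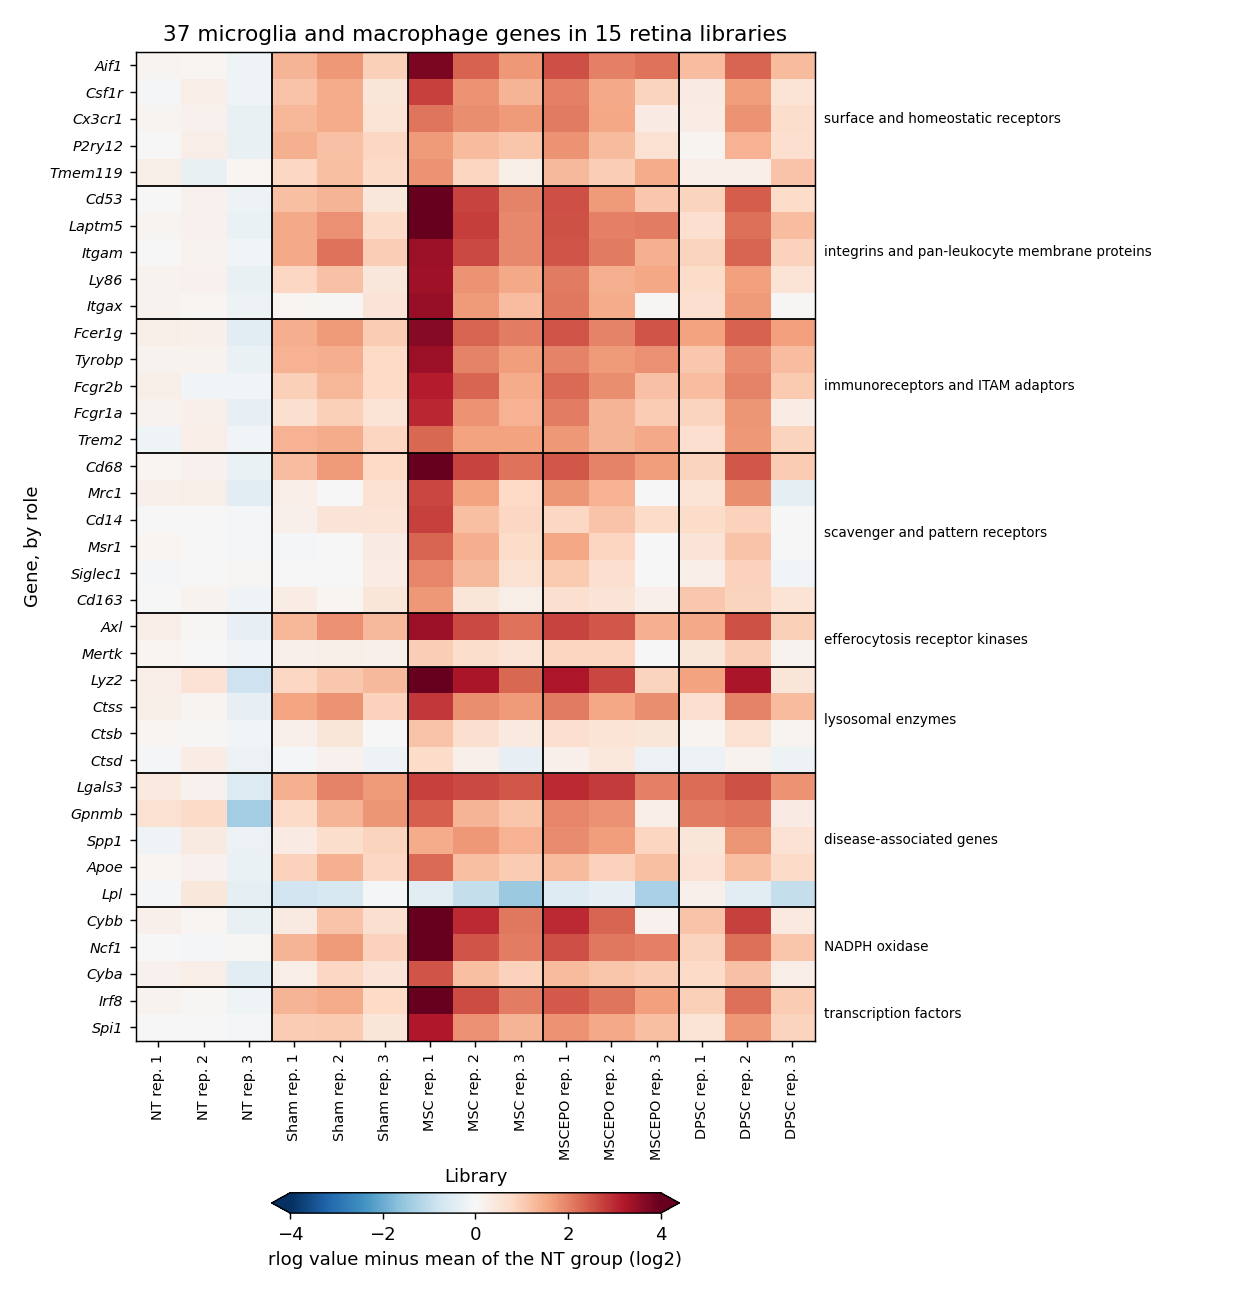
Difference of the rlog value from the NT mean (log2, colour scale capped at 4 in either direction) for the 37 members (rows, by role) in the 15 libraries (columns). MSC replicate 1 is the highest library in 32 members and NT replicate 3 the lowest in 30, and Lpl runs the other way.

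Before the single genes, the libraries that stand apart must be named. MSC replicate 1 and the library labelled MSCEPO replicate 3 lay farthest from the other libraries of their own groups over all genes (mean distance 73.3 and 91.0, against 29.9 to 68.9 elsewhere), and DPSC replicates 1 and 3 lay nearest to Sham libraries. The rod list served to check the tissue: all 9 rod markers passed the filter, and their mean level was -0.87 to -0.66 in Sham relative to NT, -1.5 to -1.31 in MSC, -1.76 to -1.37 in MSCEPO and -1.56 to -0.78 in DPSC. Endothelial markers, 6 genes, were at -0.18 to 0.12 in NT, 0.48 to 0.56 in Sham, 0.21 to 0.65 in MSC, 0.40 to 0.55 in MSCEPO and -0.03 to 0.58 in DPSC, with 0 called in Sham or MSC against NT, and their part in the member values was not tested. Mesenchymal stromal markers, 10 genes, were at -0.81 to 0.52 in NT and 0.30 to 0.62 in Sham. They were at -0.04 to 1.32 in MSC, -0.35 to 0.91 in MSCEPO and -0.33 to 1.09 in DPSC. The part of stromal cells and of the grafted human cells in the member values was not tested. Markers of lymphocytes, neutrophils, lens, glia and pigment epithelium also differed between libraries, and their values are given with the members.

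**Figure D2:**
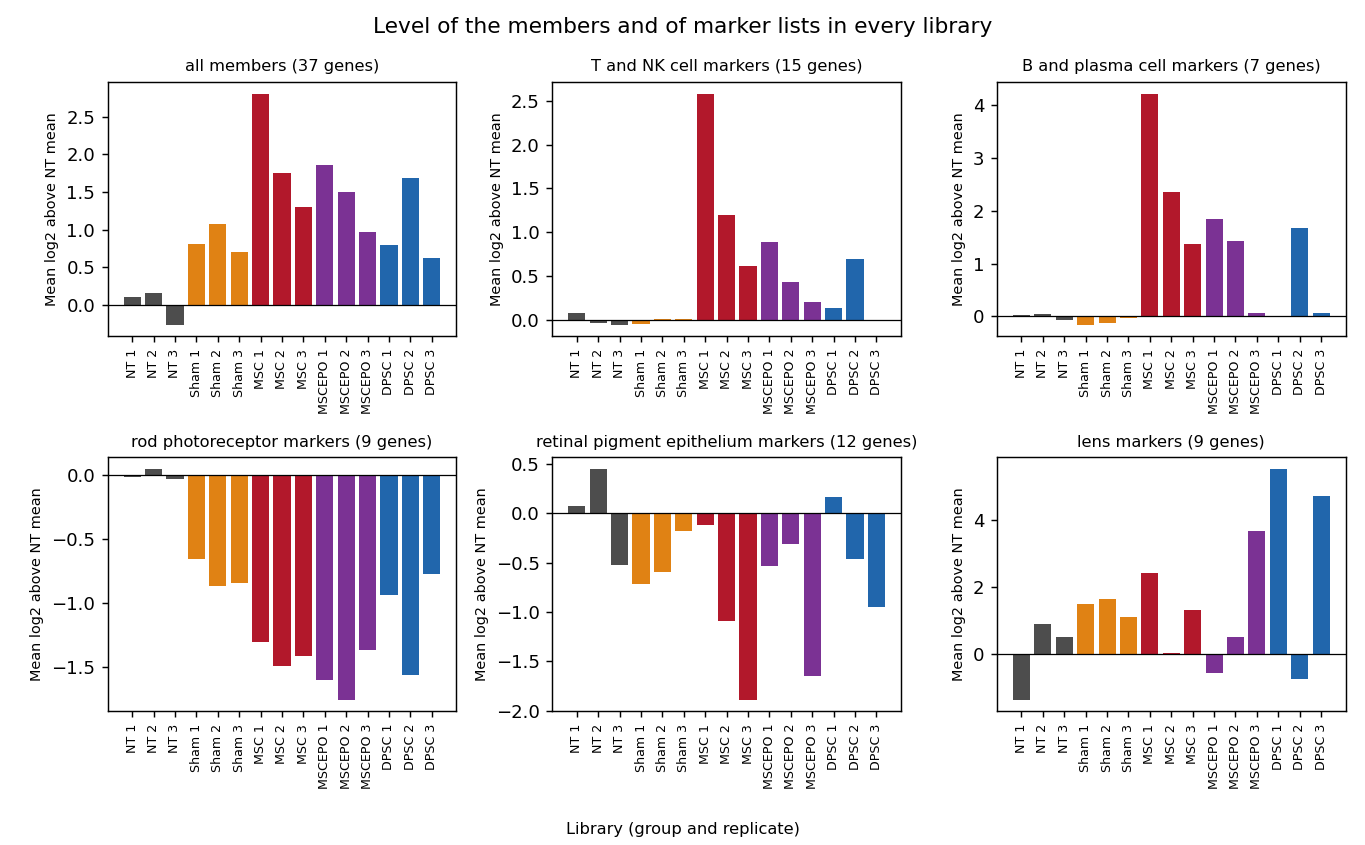
Mean log2 above the NT mean (bars, 1 per library) of the 37 members and of 5 marker lists, each with its number of tested genes. T and NK markers reach 2.58 and B cell markers 4.21 in MSC replicate 1, lens markers reach 5.54 in DPSC replicate 1, and rod markers lie under 0 in all 12 libraries of rats given sodium iodate.

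A member was called where the adjusted p of limma, over all 15424 genes, was under 0.05 and the log2 difference over 1. Against NT, 29 members were called higher in MSC, where 5.71% of all genes tested were, 21 in MSCEPO (2.33%), 2 in DPSC (0.525%) and 1 in Sham (0.266%), and 0 were called lower in any of them, where 0.985%, 1.24%, 0.259% and 0.0259% of all genes were. The median difference of the members was 2.07 in MSC, 1.48 in MSCEPO, 0.99 in DPSC and 1.03 in Sham, beside medians of all genes tested within 0.01 of 0. In Sham, 18 members were higher than in NT at an unadjusted p under 0.05, and 6.29% of all genes. These comparisons share the NT libraries and are not independent. Separation of the libraries went further than the calls: all 3 libraries of the group lay above all 3 NT libraries in 35 members for MSC (22.9% of all genes), 28 for MSCEPO (16.5%), 26 for DPSC (16.0%) and 27 for Sham (16.6%).

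With Sham in the place of NT, limma called 0 members in MSC, MSCEPO or DPSC, and at most 3 genes of all in any of these comparisons. At an unadjusted p under 0.05, 28 members were higher in MSC than in Sham (9.49% of all genes), 3 in MSCEPO (3.19%) and 0 in DPSC (0.985%). The median member differed from Sham by 1.16 in MSC, 0.65 in MSCEPO and 0.20 in DPSC, and the 3 libraries stood above the 3 of Sham in 26 members for MSC (13.1%), 13 for MSCEPO (7.44%) and 1 for DPSC (4.75%). Without MSC replicate 1 the median for MSC was 0.75, and without DPSC replicate 2 that for DPSC was -0.12. The median for DPSC was 0.32 without DPSC replicate 1 or Sham replicate 2, 0.42 without DPSC replicate 3 and 0.07 without Sham replicate 3. Leaving out MSC replicate 3 gave 14 calls for MSC against Sham (3.38% of all genes).

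The transcription factors Spi1 and Irf8 come first, since they set up the myeloid programme. Spi1 encodes PU.1, the ETS-family factor without which macrophages and microglia do not form. Spi1 was at 5.64, 5.63 and 5.58 in NT, at 6.64, 6.68 and 6.09 in Sham, at 8.83, 7.44 and 6.99 in MSC, at 7.41, 7.14 and 6.81 in MSCEPO and at 6.18, 7.36 and 6.52 in DPSC. All 12 injured retinas exceeded all 3 NT retinas. Spi1 was higher than in NT by 2.14 ± 0.40 (SE; adjusted p 0.00447) in MSC and by 1.5 ± 0.40 (SE; adjusted p 0.0302) in MSCEPO, and both were called. Irf8 encodes a factor that binds DNA with PU.1 and is needed for mature microglia. Irf8 was at 6.90, 6.83 and 6.59 in NT, at 8.13, 8.26 and 7.58 in Sham, at 11.15, 9.39 and 8.81 in MSC, at 9.23, 8.92 and 8.41 in MSCEPO and at 7.72, 8.99 and 7.79 in DPSC. The MSC libraries all exceeded the Sham libraries and the Sham libraries all exceeded NT. Irf8 rose by 3.01 ± 0.50 (SE; adjusted p 0.00251) in MSC and by 2.08 ± 0.50 (SE; adjusted p 0.0181) in MSCEPO relative to NT, while its difference of 1.22 ± 0.50 (SE; adjusted p 0.334) between Sham and NT was not called.

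Promoters show how such factors can meet member genes, and 4 are printed because they hold a motif of these factors close to the start site. RefSeq (build GRCr8) gave a promoter of 300 bases, from 250 before to 50 after the start site, for 23 of the 37 members by symbol. The PU.1 core GAGGAAGT, searched on both strands, was in 2 of these 23 (Cd53 and Ctss, 8.70%) and in 2.44% of all 27457 promoters. The composite GGAANNGAAA, at which an ETS factor and an IRF factor can bind side by side, was in 3 of the 23 (Cd68, Cybb and Gpnmb, 13%) and in 2.87% of all. The motifs share the letters GGAA but no match was counted under both in any member. Below, each promoter is written 5′ to 3′ on the strand of its gene, in lower case with the motif in capitals. In all 4 the motif reads on the opposite strand, so the capitals show its reverse complement. A match describes the letters of this window and is no evidence of binding in these retinas.
Cd53, chr2:197087847-197088146, minus strand: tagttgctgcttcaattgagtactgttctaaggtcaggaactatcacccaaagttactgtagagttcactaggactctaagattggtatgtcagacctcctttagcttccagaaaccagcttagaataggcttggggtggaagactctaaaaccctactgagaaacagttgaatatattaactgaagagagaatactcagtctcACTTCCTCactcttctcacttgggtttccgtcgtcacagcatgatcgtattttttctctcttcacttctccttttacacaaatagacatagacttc
Ctss, chr2:185775146-185775445, plus strand: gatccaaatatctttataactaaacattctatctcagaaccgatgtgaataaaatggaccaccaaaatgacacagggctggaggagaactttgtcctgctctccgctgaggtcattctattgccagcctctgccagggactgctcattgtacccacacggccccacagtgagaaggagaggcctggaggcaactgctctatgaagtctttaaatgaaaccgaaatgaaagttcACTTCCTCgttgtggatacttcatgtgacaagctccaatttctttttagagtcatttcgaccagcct
Cybb, chrX:16065016-16065315, minus strand: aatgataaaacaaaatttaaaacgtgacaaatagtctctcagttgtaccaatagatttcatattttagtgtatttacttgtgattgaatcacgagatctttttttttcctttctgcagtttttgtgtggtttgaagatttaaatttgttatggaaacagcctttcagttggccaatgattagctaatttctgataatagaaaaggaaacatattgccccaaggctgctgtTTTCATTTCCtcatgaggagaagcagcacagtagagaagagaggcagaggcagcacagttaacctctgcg
Cd68, chr10:54882392-54882691, minus strand: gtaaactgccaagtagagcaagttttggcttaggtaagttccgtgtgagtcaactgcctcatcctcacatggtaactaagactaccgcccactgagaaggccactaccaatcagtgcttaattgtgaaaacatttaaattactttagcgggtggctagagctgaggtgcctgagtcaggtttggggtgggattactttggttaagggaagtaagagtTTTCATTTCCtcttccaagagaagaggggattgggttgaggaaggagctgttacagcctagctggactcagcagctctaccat
The first base of the motif lay 46 bases before the start site in Cd53, 17 in Ctss, 20 in Cybb and 33 in Cd68.

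Among the surface and homeostatic receptors, 4 of 5 members were called higher in MSC than in NT (5.71% of all genes) and 4 of 5 in MSCEPO (2.33%). In all 5 the Sham libraries stood above NT (16.6% of all genes). Aif1 encodes IBA1, the actin-bundling protein widely used to stain microglia. Aif1 was at 7.51, 7.47 and 7.22 in NT, at 8.77, 9.13 and 8.34 in Sham, at 11.16, 9.76 and 9.13 in MSC, at 9.98, 9.40 and 9.58 in MSCEPO and at 8.63, 9.72 and 8.65 in DPSC. It was at least 0.8 log2 units above the highest NT library in every injured retina. Its difference from NT was 2.62 ± 0.43 (SE; adjusted p 0.00242) in MSC, 2.26 ± 0.43 (SE; adjusted p 0.00585) in MSCEPO, 1.60 ± 0.43 (SE; adjusted p 0.0698) in DPSC and 1.35 ± 0.43 (SE; adjusted p 0.192) in Sham. Csf1r encodes the receptor whose ligands keep microglia alive. Csf1r was at 9.31, 9.67 and 9.21 in NT, at 10.54, 10.88 and 9.89 in Sham, at 12.12, 11.18 and 10.76 in MSC, at 11.42, 10.91 and 10.29 in MSCEPO and at 9.73, 11.07 and 9.95 in DPSC. DPSC replicate 1 was the injured library nearest to NT. The difference from NT was 1.96 ± 0.42 (SE; adjusted p 0.00807) in MSC and 1.48 ± 0.42 (SE; adjusted p 0.038) in MSCEPO. Cx3cr1 encodes the receptor for neuronal fractalkine. Cx3cr1 was at 6.5, 6.57 and 6.11 in NT, at 7.73, 7.89 and 6.95 in Sham, at 8.54, 8.24 and 8.08 in MSC, at 8.47, 7.95 and 6.71 in MSCEPO and at 6.68, 8.18 and 7.11 in DPSC. The MSC libraries lay close together here, within 0.5 of each other, and MSCEPO replicate 3 and DPSC replicate 1 fell below every Sham library. Cx3cr1 was called in MSC against NT (1.89 ± 0.44 (SE; adjusted p 0.012)) but not in MSCEPO (1.32 ± 0.44 (SE; adjusted p 0.0721)).

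P2ry12, the purinergic receptor that steers microglial processes, and Tmem119, a membrane protein of resident microglia, are the members most tied to the resident state. Against NT, P2ry12 differed by 1.14 in Sham, 1.36 in MSC and 1.22 in MSCEPO, and the last 2 were called (adjusted p 0.0161 and 0.0343). Tmem119 differed by 0.93 in Sham, 0.96 in MSC and 1.26 in MSCEPO, called only in MSCEPO (adjusted p 0.0336). Against Sham, neither moved by more than its error in MSC, with 0.22 ± 0.34 for P2ry12 and 0.03 ± 0.35 for Tmem119. For these 2 genes the Sham difference amounted to 83.8% and 97.1% of the MSC difference from NT.

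All 5 integrins and pan-leukocyte membrane proteins were called higher in MSC than in NT (5.71% of all genes) and 3 in MSCEPO (2.33%). Cd53 encodes a tetraspanin found on nearly all leukocytes. Cd53 was at 6.55, 6.69 and 6.34 in NT, at 7.73, 7.88 and 6.98 in Sham, at 10.83, 9.23 and 8.51 in MSC, at 9.12, 8.24 and 7.62 in MSCEPO and at 7.42, 8.94 and 7.25 in DPSC. The 3 MSC libraries lay above all Sham libraries, and MSC replicate 1 stood 1.60 above the next MSC library. Cd53 differed from NT by 2.99 ± 0.58 (SE; adjusted p 0.00491) in MSC and by 1.80 ± 0.58 (SE; adjusted p 0.0628) in MSCEPO, of which the first was called. Laptm5 encodes a lysosomal membrane protein of blood cells. Laptm5 was at 7.35, 7.42 and 6.98 in NT, at 8.78, 9.09 and 8.03 in Sham, at 11.55, 10.00 and 9.18 in MSC, at 9.81, 9.28 and 9.31 in MSCEPO and at 7.91, 9.46 and 8.47 in DPSC. DPSC replicate 1 lay below every Sham library. Laptm5 rose by 2.99 ± 0.52 (SE; adjusted p 0.00295) in MSC and by 2.22 ± 0.52 (SE; adjusted p 0.0161) in MSCEPO relative to NT. Itgam encodes CD11b, the integrin chain of complement receptor 3. Itgam was at 6.46, 6.63 and 6.36 in NT, at 8.01, 8.64 and 7.48 in Sham, at 9.90, 9.11 and 8.39 in MSC, at 9.0, 8.57 and 7.92 in MSCEPO and at 7.37, 8.81 and 7.40 in DPSC. Sham replicate 2 reached the range of the MSC libraries, so MSC and Sham overlapped. The differences from NT were 1.56 ± 0.45 (SE; adjusted p 0.146) in Sham, 2.65 ± 0.45 (SE; adjusted p 0.00282) in MSC and 2.01 ± 0.45 (SE; adjusted p 0.0133) in MSCEPO.

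Ly86, which encodes the partner of the Toll-like protein RP105, followed the same course with a difference from NT of 2.23 in MSC and 1.68 in MSCEPO, both called. Itgax, which encodes CD11c and marks dendritic cells and activated microglia, hardly differed between Sham and NT (0.21 ± 0.60 (SE; adjusted p 0.962)). It was called in MSC against NT (2.14 ± 0.60 (SE; adjusted p 0.0273)), and MSCEPO replicate 3 and DPSC replicate 3, at 4.71 and 4.69, were at the level of NT.

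Among the receptors and adaptors of ITAM signalling, all 5 members were called higher than NT in MSC (5.71% of all genes) and all 5 in MSCEPO (2.33%). In all 5 the Sham libraries (16.6% of all genes) and the DPSC libraries (16.0%) each stood above NT. Fcer1g encodes the common gamma chain of the Fc receptors. Fcer1g was at 7.41, 7.39 and 6.72 in NT, at 8.62, 8.88 and 8.18 in Sham, at 10.83, 9.49 and 9.21 in MSC, at 9.68, 9.17 and 9.69 in MSCEPO and at 8.79, 9.52 and 8.83 in DPSC. It was called in all 3 cell groups against NT, by 2.67 ± 0.37 (SE; adjusted p 0.00116) in MSC, 2.34 ± 0.37 (SE; adjusted p 0.00198) in MSCEPO and 1.87 ± 0.37 (SE; adjusted p 0.0205) in DPSC. Tyrobp encodes DAP12, through which TREM2 signals. Tyrobp was at 6.34, 6.35 and 5.94 in NT, at 7.59, 7.66 and 7.02 in Sham, at 9.62, 8.21 and 7.88 in MSC, at 8.21, 7.92 and 8.05 in MSCEPO and at 7.29, 8.11 and 7.45 in DPSC. The MSC, MSCEPO and DPSC libraries all exceeded the highest NT library by more than 0.9. Its difference from NT was 2.36 ± 0.37 (SE; adjusted p 0.00177) in MSC and 1.85 ± 0.37 (SE; adjusted p 0.00722) in MSCEPO. Fcgr2b encodes the inhibitory IgG receptor, and its close paralogs make the assignment of reads uncertain. Fcgr2b was at 6.47, 6.13 and 6.15 in NT, at 7.21, 7.57 and 7.06 in Sham, at 9.38, 8.58 and 7.74 in MSC, at 8.5, 8.12 and 7.41 in MSCEPO and at 7.49, 8.23 and 7.31 in DPSC. The groups NT and Sham did not overlap, nor did Sham and MSC. Fcgr2b rose by 2.32 ± 0.38 (SE; adjusted p 0.00237) in MSC and by 1.76 ± 0.38 (SE; adjusted p 0.0112) in MSCEPO relative to NT.

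Fcgr1a, the high-affinity IgG receptor, was called with 2.07 in MSC and 1.47 in MSCEPO against NT. Trem2, the lipid-sensing receptor that drives the disease-associated state, was called with 1.84 and 1.54. In Sham the 2 differed from NT by 0.72 ± 0.43 and 1.24 ± 0.27 (SE; adjusted p 0.056), and Trem2 against Sham gave 0.60 ± 0.27 in MSC.

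**Figure D3:**
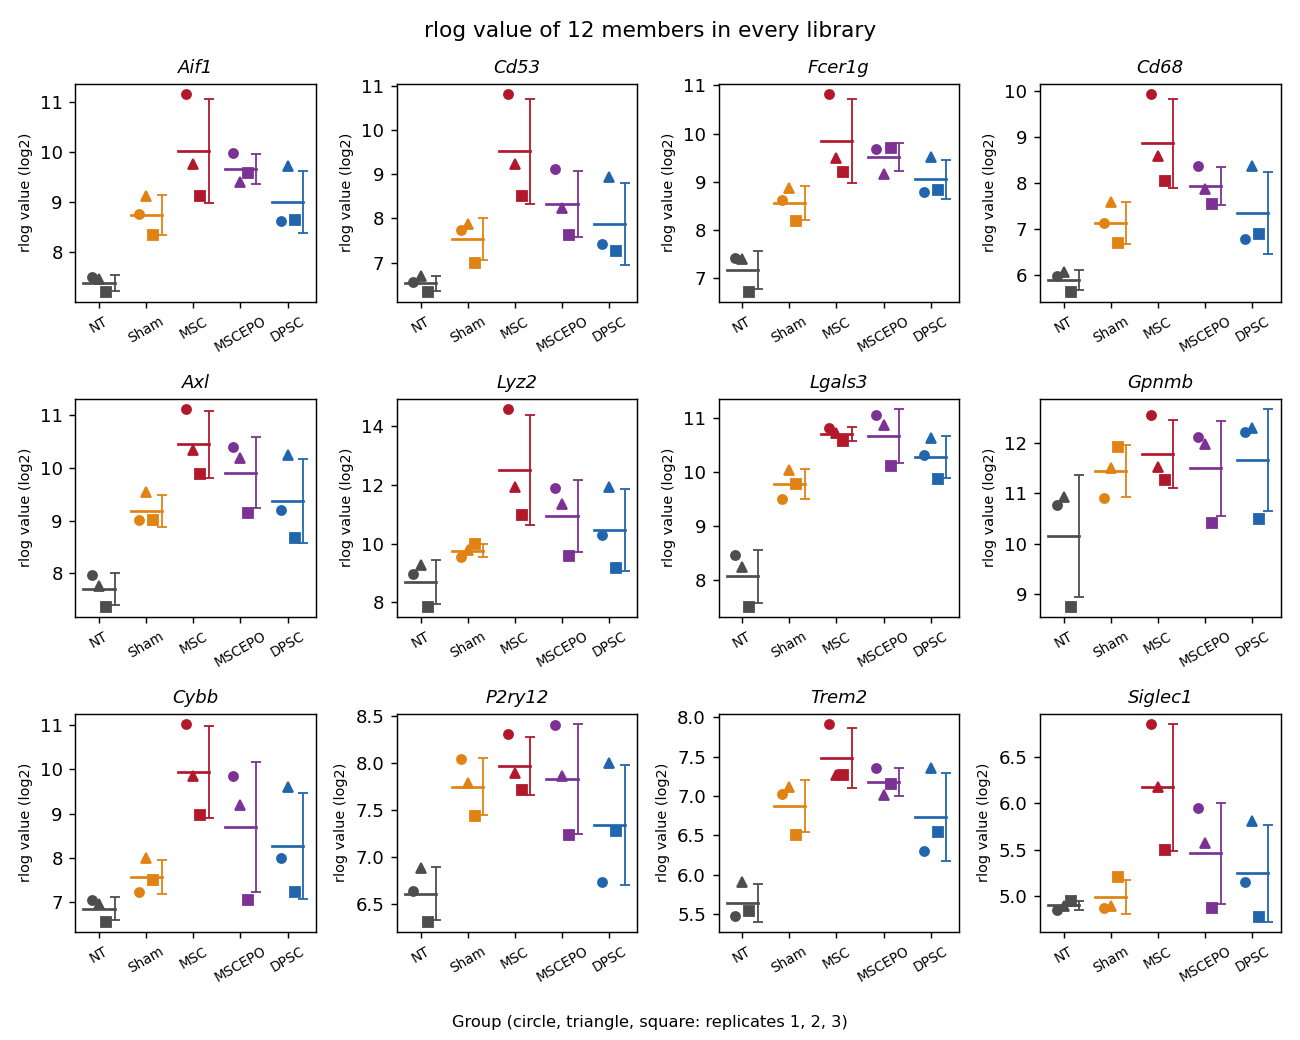
rlog values (log2) of 12 members in the 15 libraries by group, with lines for group means and bars for the SD of 3 libraries. Lgals3, P2ry12 and Trem2 take most of their difference already in Sham. In Cybb and Lyz2 the MSC libraries stand well above Sham, in Siglec1 MSC replicate 3 only slightly (5.49 beside 5.2 in Sham replicate 3), and replicate 1 leads in all 3 genes.

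The 6 scavenger and pattern receptors were split. Cd68, the lysosomal glycoprotein of phagocytes, was the member of this role with the largest range. Cd68 was at 5.97, 6.06 and 5.63 in NT, at 7.12, 7.59 and 6.69 in Sham, at 9.95, 8.59 and 8.05 in MSC, at 8.38, 7.86 and 7.55 in MSCEPO and at 6.78, 8.36 and 6.89 in DPSC. All 12 injured retinas exceeded NT and all MSC retinas exceeded Sham. It rose by 2.98 ± 0.48 (SE; adjusted p 0.00222) in MSC and by 2.04 ± 0.48 (SE; adjusted p 0.017) in MSCEPO relative to NT. Mrc1 encodes the mannose receptor of perivascular and tissue macrophages. Mrc1 was at 5.96, 5.99 and 5.32 in NT, at 6.03, 5.78 and 6.35 in Sham, at 8.42, 7.35 and 6.56 in MSC, at 7.53, 7.16 and 5.77 in MSCEPO and at 6.31, 7.63 and 5.35 in DPSC. MSCEPO replicate 3 and DPSC replicate 3 were within the NT range, and Sham overlapped with NT. Its difference of 1.69 ± 0.59 (SE; adjusted p 0.069) between MSC and NT was not called. Cd14 encodes the co-receptor for lipopolysaccharide. Cd14 was at 5.43, 5.42 and 5.36 in NT, at 5.60, 5.93 and 5.94 in Sham, at 8.13, 6.60 and 6.22 in MSC, at 6.24, 6.53 and 6.15 in MSCEPO and at 6.14, 6.32 and 5.39 in DPSC. Cd14 was called in MSC against NT (1.58 ± 0.38 (SE; adjusted p 0.0146)), and its difference between Sham and NT was 0.42 ± 0.38 (SE; adjusted p 0.764).

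Msr1 and Siglec1, a class A scavenger receptor and the sialoadhesin of tissue macrophages, were near their NT level in Sham, with 0.10 ± 0.41 and 0.09 ± 0.35. In MSC they were called against NT, with 1.51 ± 0.41 (SE; adjusted p 0.0257) and 1.28 ± 0.35 (SE; adjusted p 0.0234). Cd163, the haemoglobin scavenger receptor, was not called in any group, and it was the only member whose 3 DPSC libraries, at 5.46, 5.27 and 4.91, all lay above Sham, at 4.66, 4.46 and 4.85. The difference was 0.55 ± 0.31 (SE; adjusted p 1), and the level of the erythrocyte markers, 2 tested genes, was 3.09 in DPSC replicate 1. The other DPSC libraries were not high in them: the haemoglobin gene Hba1 was at 11.4, 9.04 and 8.7 in DPSC and at 8.45, 9.38 and 9.15 in Sham. The part of blood in this result was not tested.

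Axl and Mertk are receptor kinases through which phagocytes recognise dying cells, bridged by Gas6 and protein S, and Mertk also serves the pigment epithelium in taking up outer segments. Axl was at 7.98, 7.76 and 7.37 in NT, at 9.02, 9.54 and 9.01 in Sham, at 11.13, 10.34 and 9.88 in MSC, at 10.41, 10.19 and 9.14 in MSCEPO and at 9.21, 10.25 and 8.67 in DPSC. Axl was higher in all 12 injured retinas than in NT. The difference from NT was 1.49 ± 0.43 (SE; adjusted p 0.144) in Sham, 2.75 ± 0.43 (SE; adjusted p 0.00177) in MSC and 2.21 ± 0.43 (SE; adjusted p 0.00611) in MSCEPO, with the last 2 called. Mertk was at 9.63, 9.57 and 9.45 in NT, at 9.75, 9.78 and 9.75 in Sham, at 10.52, 10.25 and 10.11 in MSC, at 10.42, 10.40 and 9.53 in MSCEPO and at 10.02, 10.54 and 9.68 in DPSC. The Sham libraries lay within 0.03 of each other and just above NT. In MSC, Mertk reached 0.74 ± 0.24 (SE; adjusted p 0.0467) against NT, past the adjusted p but short of a difference of 1. Pigment epithelium markers, 12 genes, had a mean level of -0.53 to 0.45 in NT, -0.72 to -0.18 in Sham, -1.89 to -0.12 in MSC, -1.65 to -0.31 in MSCEPO and -0.95 to 0.17 in DPSC, and this mean overlapped with NT in each injured group. The single genes were divided. Rpe65, Lrat, Rgr, Rdh5 and Ttr were lower in every Sham library than in every NT library. Rpe65 was at 11.58, 12.36 and 11.82 in NT and at 10.47, 10.47 and 11.48 in Sham. Of the 12 genes, 7 were below 0 in Sham against NT and 5 above it, with 0 called. In MSC against NT, 3 were called lower. Müller glia and astrocyte markers, 9 genes, were at -0.15 to 0.14 in NT, 0.45 to 0.72 in Sham, 0.54 to 0.87 in MSC, 0.60 to 0.82 in MSCEPO and 0.51 to 0.79 in DPSC, so that all injured retinas lay above NT. Gfap, the filament gene of reactive glia, led them with 3.38 ± 0.28 (SE; adjusted p 0.000403) in Sham against NT and was the 1 gene of this list called there, while 4 of the 9 were below 0. The part of pigment epithelium and glia in the values of Mertk was not tested.

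Lysosomal enzymes were uneven, with Lyz2 and Ctss called in MSC against NT and Ctsb and Ctsd not. Lyz2 encodes the lysozyme of macrophages and neutrophils and shares reads with a close paralog, which leaves its level uncertain. Lyz2 was at 8.95, 9.27 and 7.85 in NT, at 9.53, 9.77 and 9.98 in Sham, at 14.61, 11.94 and 10.97 in MSC, at 11.91, 11.37 and 9.58 in MSCEPO and at 10.29, 11.94 and 9.16 in DPSC. It had the largest difference from NT of all members, 3.82 ± 0.90 (SE; adjusted p 0.0126) in MSC, and MSC replicate 1 was 2.67 above the next library. Without that library Lyz2 was higher in MSC than in Sham by 1.69 in place of 2.75. In MSCEPO it was 2.27 ± 0.90 (SE; adjusted p 0.125) above NT, not called. Ctss encodes cathepsin S, which trims the invariant chain for antigen presentation. Ctss was at 9.70, 9.58 and 9.14 in NT, at 11.04, 11.27 and 10.38 in Sham, at 12.30, 11.33 and 11.17 in MSC, at 11.55, 11.02 and 11.34 in MSCEPO and at 10.14, 11.45 and 10.73 in DPSC. DPSC replicate 1 was the lowest of the injured retinas. Ctss was called in MSC (2.13 ± 0.35 (SE; adjusted p 0.00254)) and in MSCEPO (1.83 ± 0.35 (SE; adjusted p 0.00616)) against NT, and Sham differed from NT by 1.42 ± 0.35 (SE; adjusted p 0.0907). Ctsb encodes cathepsin B, made by most cells. Ctsb was at 13.22, 13.18 and 13.02 in NT, at 13.34, 13.62 and 13.17 in Sham, at 14.28, 13.79 and 13.54 in MSC, at 13.82, 13.69 and 13.64 in MSCEPO and at 13.24, 13.76 and 13.26 in DPSC. The difference of 0.73 ± 0.19 (SE; adjusted p 0.0201) between MSC and NT passed the adjusted p and stayed under 1. Ctsd, cathepsin D, gave -0.04 ± 0.25 in Sham and 0.20 ± 0.25 in MSC against NT.

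The disease-associated genes held the only call between Sham and NT. Lgals3 encodes galectin-3, a lectin of phagocytosing microglia. Lgals3 was at 8.46, 8.24 and 7.51 in NT, at 9.49, 10.04 and 9.78 in Sham, at 10.80, 10.72 and 10.56 in MSC, at 11.04, 10.86 and 10.10 in MSCEPO and at 10.31, 10.63 and 9.86 in DPSC. Every injured retina lay at least 1.0 above the highest NT retina, and the MSC libraries agreed within 0.3. Lgals3 rose by 1.70 ± 0.28 (SE; adjusted p 0.0154) in Sham, 2.62 ± 0.28 (SE; adjusted p 0.000311) in MSC, 2.60 ± 0.28 (SE; adjusted p 0.000195) in MSCEPO and 2.20 ± 0.28 (SE; adjusted p 0.00219) in DPSC, called in all 4 groups. Its adjusted p between Sham and NT ran from 0.000425 to 0.0969 over 17 alternatives and missed 0.05 in 4, in which NT replicate 2 or 3 or Sham replicate 2 or 3 was left out. Gpnmb encodes a glycoprotein of foamy macrophages and of melanosomes. Gpnmb was at 10.77, 10.93 and 8.75 in NT, at 10.91, 11.51 and 11.92 in Sham, at 12.55, 11.52 and 11.27 in MSC, at 12.11, 11.98 and 10.41 in MSCEPO and at 12.21, 12.29 and 10.49 in DPSC. NT replicate 3 was about 2 units below the other NT libraries, and MSCEPO replicate 3 and DPSC replicate 3 were also low. The melanosome gene Pmel was low in the same 3 libraries, at 9.81, 8.99 and 10.01, and also in MSC replicate 3, at 9.29, where Gpnmb was at 11.27. The part of pigment cells in the values of Gpnmb was not tested. Gpnmb was not called, with 1.63 ± 0.66 (SE; adjusted p 0.111) in MSC against NT.

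Spp1 encodes osteopontin, a secreted bridging protein. Spp1 was at 8.06, 8.58 and 7.99 in NT, at 8.54, 8.90 and 9.11 in Sham, at 9.70, 9.96 and 9.61 in MSC, at 10.10, 9.87 and 9.06 in MSCEPO and at 8.71, 9.97 and 8.78 in DPSC. MSC libraries lay within 0.4 of each other and above Sham. Spp1 was called in MSC (1.55 ± 0.33 (SE; adjusted p 0.0082)) and in MSCEPO (1.47 ± 0.33 (SE; adjusted p 0.0139)) against NT. Apoe, the main lipid carrier of the retina, was called with 1.5 in MSC and 1.13 in MSCEPO, and differed by 1.06 ± 0.30 in Sham. The mean level of the Müller glia and astrocyte markers, given with Mertk and led by Gfap, was also higher in all injured retinas than in NT. Of these 9 markers, 4 were below 0 in Sham against NT. The part of glia in the values of Apoe was not tested. Lpl, the lipase that frees fatty acids from lipoproteins, ran opposite to the rest. Its libraries were at 10.31, 10.83 and 10.02 in NT and at 9.93, 9.43 and 8.89 in MSC, all MSC below all NT (21.2% of all genes did so). The difference of -0.97 ± 0.36 (SE; adjusted p 0.0845) was not called. With weights for each library, Lpl was called lower in MSC than in NT, as were 1.21% of all genes.

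The subunits of the phagocyte NADPH oxidase, which makes superoxide, were all called higher in MSC against NT (5.71% of all genes). Cybb encodes the catalytic chain. Cybb was at 7.06, 6.95 and 6.56 in NT, at 7.22, 7.99 and 7.51 in Sham, at 11.03, 9.85 and 8.96 in MSC, at 9.84, 9.19 and 7.04 in MSCEPO and at 7.99, 9.59 and 7.24 in DPSC. MSC libraries stood well above Sham, whereas MSCEPO replicate 3 was at the level of NT. Cybb rose by 3.09 ± 0.72 (SE; adjusted p 0.0122) in MSC relative to NT, and its differences of 0.72 ± 0.72 (SE; adjusted p 0.794) in Sham and 1.83 ± 0.72 (SE; adjusted p 0.122) in MSCEPO were not called. Ncf1 encodes the cytosolic organiser. Ncf1 was at 6.93, 6.84 and 6.95 in NT, at 8.26, 8.62 and 7.82 in Sham, at 11.04, 9.42 and 8.95 in MSC, at 9.49, 9.03 and 8.92 in MSCEPO and at 7.80, 9.11 and 8.01 in DPSC. Unlike Cybb it was high in all 3 MSCEPO libraries. Ncf1 rose by 2.89 ± 0.46 (SE; adjusted p 0.00195) in MSC and 2.24 ± 0.46 (SE; adjusted p 0.00845) in MSCEPO relative to NT. Cyba encodes the partner chain in the membrane, found in many cells. Cyba was at 7.54, 7.62 and 6.94 in NT, at 7.62, 8.19 and 7.89 in Sham, at 9.87, 8.56 and 8.30 in MSC, at 8.64, 8.48 and 8.37 in MSCEPO and at 8.14, 8.54 and 7.62 in DPSC. Cyba was called in MSC (1.54 ± 0.36 (SE; adjusted p 0.0118)) and missed the adjusted p in MSCEPO (1.13 ± 0.36 (SE; adjusted p 0.058)).

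The members differed in how much of their rise was present without grafted cells. Sham minus NT was set beside MSC minus Sham with signs kept. The first was larger in 14 members and the second in 23, and 48.2% of all genes tested had the first larger. Lpl, at -0.487 and -0.481, rose in neither step and counts among the 23. After the homeostatic Tmem119 and P2ry12, the highest shares of the MSC difference from NT already present in Sham were those of Gpnmb (79.4%), Apoe (70.6%), Trem2 (67.2%), Ctss (66.9%) and Lgals3 (64.7%). The 2 further disease-associated genes were unlike these, with 41.4% in Spp1 and, in Lpl, differences below 0 in both steps. The lowest shares were those of Msr1 (6.67%), Siglec1 (7.19%), Itgax (9.77%), Mrc1 (17.5%), Cybb (23.3%), Cd14 (26.7%), Lyz2 (28.0%) and Mertk (28.5%), apart from Ctsd, whose Sham difference was below 0. The split leans on MSC replicate 1: without it the counts were 23 and 14. The share of Gpnmb also rests on NT replicate 3, at 8.75 beside 10.77 and 10.93 in the other NT libraries. Sham and NT overlapped in Gpnmb. These shares compare means that rest on the same Sham libraries and carry no test.

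**Figure D4:**
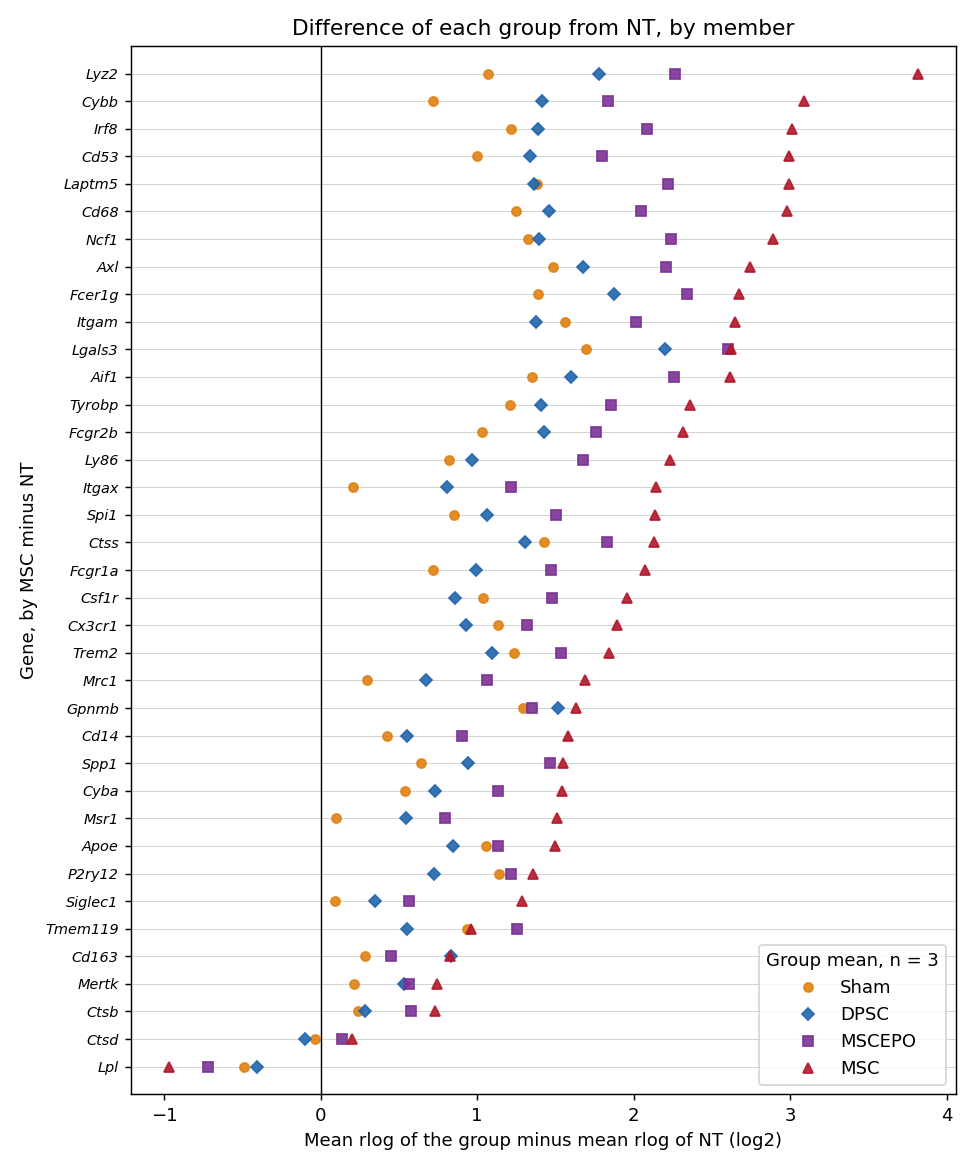
Mean rlog value of each injured group minus the NT mean (log2) for each member, ordered by MSC minus NT, 3 libraries per group. MSC lies farthest to the right in 34 members, Lyz2 reaches 3.82, and Lpl lies left of 0 in all 4 groups.

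In the fit without library weights, no member was called between any of the cell groups. Between MSC and MSCEPO, limma called 0 members and 0 genes of all, 0 members had an unadjusted p under 0.05 (2.83% of all genes), and the median member was 0.54 higher in MSC, 0.09 without MSC replicate 1, 0.82 without MSC replicate 3 and 0.32 without MSCEPO replicate 3. With MSC replicate 1 and MSCEPO replicate 3 both left out, an alternative chosen after seeing the data, the sign turned and it was -0.11. The differences with the largest values were 1.55 ± 0.90 for Lyz2, 1.26 ± 0.72 for Cybb and 1.19 ± 0.58 for Cd53 (± SE). Since no member had an unadjusted p under 0.05 in either direction, the 95% interval of each difference includes 0, which does not show that MSC and MSCEPO act alike. Between DPSC and MSC, 0 members were called, 26 were lower in DPSC at an unadjusted p under 0.05 (5.78% of all genes), and the median was -0.96, or -0.53 without MSC replicate 1. Between DPSC and MSCEPO the median was -0.44, with 0 calls and 0 members lower at an unadjusted p under 0.05 (0.901% of all genes). That median was -0.24 without MSCEPO replicate 1, -0.68 without MSCEPO replicate 3, -0.81 without DPSC replicate 2 and -0.21 without DPSC replicate 3.

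The single retinas of a cell group differed more from each other than those of NT or Sham. The median SD of the members was 0.240 in NT, 0.322 in Sham, 0.813 in MSC, 0.50 in MSCEPO and 0.623 in DPSC, against 0.10, 0.116, 0.163, 0.245 and 0.147 over all genes tested. MSC replicate 1 exceeded the highest Sham library in 36 members (37.2% of all genes), replicate 2 in 32 (30.3%) and replicate 3 in 26 (30.2%). In MSCEPO the counts were 35 (33.8%), 30 (30.4%) and 16 (39.5%), and in DPSC 9 (29.6%), 32 (32.0%) and 1 (26.0%). DPSC replicates 1 and 3 lay below the lowest Sham library in 11 members (27.1%) and 14 members (27.3%). The members' counts in MSCEPO replicate 3 and, above and below Sham, in DPSC replicate 1 were near the shares of all genes.

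Lymphocyte markers also differed between these retinas. T and NK cell markers, 15 of 18 tested, were at -0.04 to 0.01 in Sham relative to NT, at 0.61 to 2.58 in MSC, 0.21 to 0.89 in MSCEPO and 0.00 to 0.69 in DPSC, with the highest values in MSC replicate 1 and, within DPSC, in replicate 2. B cell markers, 7 of 10 tested, were at -0.15 to -0.03 in Sham, 1.37 to 4.21 in MSC, 0.07 to 1.83 in MSCEPO and -0.01 to 1.67 in DPSC. Cd3e, a chain of the T cell receptor complex, was at 4.16, 4.33 and 4.34 in Sham and at 9.67, 6.48 and 5.65 in MSC, and the B cell gene Cd79a at 4.01, 4.30 and 4.14 and at 9.90, 7.87 and 6.65. In Sham the members were higher than in NT while both lymphocyte lists stayed at the level of NT. Dendritic cell markers, 5 of 8 tested, were at 0.27 to 2.41 in MSC. Of 10 neutrophil markers, 2 were tested, Csf3r and Mmp9. Csf3r, the receptor for a granulocyte growth factor, was at 5.24, 5.03 and 5.02 in NT, at 5.75, 5.94 and 5.36 in Sham and at 6.44, 6.10 and 5.91 in MSC, and it was called in MSC against NT with 1.05. Mmp9 differed there by -0.12 and was not called. S100a8, S100a9, Mpo, Cxcr2, Camp, Ngp and Mmp8 lay under the filter, with S100a8 at 2.03, 1.97 and 1.92 in MSC. The part of lymphocytes, dendritic cells and neutrophils in the member values of the cell groups was not tested.

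Lens markers, 9 of 9 tested, were highest in the libraries where the members were lowest within the DPSC and MSCEPO groups. They were at 5.54 and 4.72 in DPSC replicates 1 and 3 and at 3.68 in MSCEPO replicate 3, against -1.38 to 0.87 in NT, 1.09 to 1.64 in Sham and -0.75 in DPSC replicate 2. The MSC group ran the other way. Its lens level was 0.01 to 2.42 and highest in replicate 1, where the members were highest too, with the crystallin gene Cryaa at 15.18, 12.62 and 13.54. With these 3 libraries left out, an alternative chosen after seeing the data, 13 members were called in DPSC against NT (2.73% of all genes), on 1 DPSC library taken to vary like the other groups, and 26 in MSCEPO against NT (4.69%). The counts for Sham against NT then became 7 (0.551%) and for MSC against NT 30 (6.21%). The part of lens tissue in the lower member values was not tested.

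Genes around the members, from lists chosen by function, gave the context. Beside the counts of all these lists stand the shares of all genes tested. In Sham against NT 51.2% were above 0 and 0.266% called higher, and in MSC against NT 5.71% were called higher. Of 12 tested further microglia genes, 12 were above 0 in Sham against NT with a median of 1.07, and 1 was called, Sall1, a transcription factor of resident microglia. Sall1 was at 7.07, 7.0 and 6.89 in NT, at 8.36, 8.47 and 7.73 in Sham, at 8.69, 8.42 and 8.45 in MSC, at 8.76, 8.63 and 8.42 in MSCEPO and at 8.45, 8.72 and 8.16 in DPSC. All 12 injured retinas lay above NT, and the cell groups overlapped with Sham. Sall1 rose by 1.20 ± 0.19 (SE; adjusted p 0.0126) in Sham, and differed from Sham by 0.33 ± 0.19 in MSC. C1qa and C1qb, chains of complement C1q, gave 1.56 ± 0.41 and 1.53 ± 0.40 in Sham against NT and 1.41 ± 0.41 and 1.57 ± 0.40 in MSC against Sham, and Gpr34, a lipid receptor of microglia, gave 1.23 ± 0.44 and 0.63 ± 0.44. In MSC against NT, 9 of the 12 were called.

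Of 15 tested macrophage and monocyte genes, 14 were above 0 in Sham against NT with a median of 0.23, 0 were called in Sham and 8 in MSC against NT. Adgre1, which encodes F4/80, differed from NT by 1.37 ± 0.53 in Sham, and Itgb2, the beta chain that pairs with Itgam and Itgax, by 0.97 ± 0.42. Hmox1, the haem-degrading enzyme, gave 1.00 ± 0.20 (SE; adjusted p 0.0411) with a difference just under 1.

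Ligands and partners of the member receptors differed less. Of 11 tested, 8 were above 0 in Sham against NT with a median of 0.14 and 0 were called in Sham, while 3 were called in MSC against NT. Csf1, a ligand of Csf1r, was at 7.62, 7.63 and 7.33 in NT, at 8.30, 8.76 and 8.57 in Sham and at 9.52, 9.34 and 9.16 in MSC, 3 groups that did not overlap, with 1.02 ± 0.33 (SE; adjusted p 0.196) in Sham against NT. The other ligand, Il34, which neurons make, differed by 0.27 ± 0.11. Neuronal Cx3cl1 and Cd200, which restrain microglia, differed by -0.09 ± 0.11 and 0.14 ± 0.11 in Sham against NT, and the receptor Cd200r1 by 0.14 ± 0.33 and, in MSC against Sham, by 1.07 ± 0.33. The bridging ligands of Axl and Mertk, Gas6 and Pros1, gave -0.07 ± 0.08 and 0.39 ± 0.21, and Mfge8, which bridges dying cells to integrins, gave -0.25 ± 0.13. Tgfb1 and Cd47, a cytokine that restrains microglia and a signal against engulfment, had 0.90 ± 0.36 and 0.61 ± 0.21.

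Signalling partners followed the receptors. All 8 tested genes of ITAM signalling were above 0 in Sham against NT (median 0.75, 0 called) and 8 were called in MSC against NT, and the kinases Lyn and Fgr gave 0.98 ± 0.38 and 0.94 ± 0.33 in Sham. Of 3 tested further oxidase genes, 2 were called in MSC against NT, and Rac2, the GTPase that activates the oxidase in blood cells, gave 0.87 ± 0.54 in Sham against NT and 2.26 ± 0.54 in MSC against Sham. Of 16 further lysosome genes, 15 were above 0 in Sham with a median of 0.32 and 4 were called in MSC against NT, led in Sham by the cathepsins Ctsz (1.09 ± 0.40) and Ctsh (0.82 ± 0.32). Of 9 further myeloid transcription factors, 6 were above 0 in Sham with a median of 0.37 and 6 were called in MSC against NT. Irf5 and Ikzf1, of which the latter also serves lymphocytes, gave 0.84 ± 0.31 and 0.82 ± 0.51 in Sham against NT.

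The counts of calls varied with the libraries and weights in the fit. With Sham and NT fitted alone, limma called 17 members higher in Sham (0.992% of all genes), with weights for each library 14 (0.797%), and without NT replicate 2 or 3 or Sham replicate 2 or 3 it called 0. The median of 1.03 stayed between 0.83 and 1.08 when any NT or Sham library was left out. Library weights also gave 12 members lower in DPSC than in MSC (2.42% of all genes), 19 members for MSC against Sham (2.96%) and 6 for MSCEPO against Sham (1.43%). Against NT they gave 14 for DPSC (1.74%) and 30 for MSCEPO (5.32%). For MSCEPO against NT, 9 members (1.1% of all genes) were called without NT replicate 3, 12 (1.47%) without MSCEPO replicate 1 and 13 (1.59%) without NT replicate 1 or 2, in place of 21 (2.33%). The count rose to 25 (4.23%) without MSCEPO replicate 3, and to 29 (5.28%) with MSC replicate 1 and MSCEPO replicate 3 both left out. In MSC against NT the count stayed between 21 (3.51%, without NT replicate 3) and 32 (7.16%, without MSC replicate 3) when any library of the 2 groups was left out.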

How the data were processed

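RNA-Seq values of 15 whole rat retinas in 5 groups of 3 were read, and sample labels gave the groups. Reads from a stranded mRNA kit were quantified by the authors with Salmon 1.1.0 on Ensembl Rnor_6.0, summed to genes with tximport and transformed with the rlog of DESeq2. The deposited log2 values are these rlog values from the authors, corrected for library size and shrunken. Library depth is unknown because counts were not used here, and no detection limit is given. A table of the whole series repeats the values in 15 columns, left unused, and 0 values differ.

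Genes with a mean rlog of at least 3.32 (15424) were fitted in R 4.3.3 with limma 3.58.1: group means over all 15 libraries, eBayes with a trend, and Benjamini-Hochberg adjustment over all genes in each of 10 comparisons. For a call, the adjusted p had to be under 0.05 and the log2 difference over 1 in size. Errors are the SE of this fit unless given as SD. Members and lists were chosen with earlier results of these data known, so no list was tested. Values in all libraries are given for the 3 members of each role with the largest range of group means. Of the further lists, up to 3 genes with the largest difference between Sham and NT and the ligands of member receptors are named, and the library values of Cd163, Lpl and the markers quoted were added after being seen. Level of a list means the mean of its tested genes minus their NT mean. Promoters came from RefSeq (GRCr8), read with Python 3.11.15, and figures from matplotlib 3.10.9. As alternatives, calls by adjusted p without a fold, other filters, fits of 2 groups or 12 libraries, a replicate block, median centring, quantile normalization, array weights and each library left out were tried, besides 2 sets of libraries left out together, chosen after the data were seen. The fit was tested on simulated data.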

Additional observations from a re-analysis of the deposited data

How the results depend on the processing

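The median differences of the members kept their sign in all 10 comparisons under no filter, a filter in every library, median centring and quantile normalization, and the counts of calls stayed within 1.5 times. With each library left out in turn, the number of members called ran from 0 to 1 for Sham against NT (0.104% to 0.156% of all genes called higher). It ran from 21 (3.51%) to 32 (7.16%) for MSC against NT and from 9 (1.1%) to 25 (4.23%) for MSCEPO against NT. For DPSC against NT it ran from 1 (0.201% to 0.486%) to 4 (0.473%), and for MSC against Sham from 0 to 14 (3.38%). It stayed at 0 for MSCEPO or DPSC against Sham and between cell groups. The lowest counts for MSCEPO against NT came without NT replicate 3 (9, 1.1%), MSCEPO replicate 1 (12, 1.47%), and NT replicate 1 or 2 (13 each, 1.59%). Fits of the 2 groups alone called 17 for Sham against NT and 5 for DPSC against NT. A fit of 12 libraries without DPSC called 2 for Sham against NT (0.292% of all genes). Array weights were estimated gene by gene because the usual estimate did not converge. They called 14 for Sham against NT (0.797% of all genes), 14 for DPSC against NT (1.74%) and 30 for MSCEPO against NT (5.32%). Against Sham they called 19 for MSC (2.96%) and 6 for MSCEPO (1.43%). Between DPSC and MSC they called 12 (2.42%), all lower in DPSC. Lpl was called lower in MSC than in NT (1.21%). Weights were lowest for MSCEPO replicate 3 (0.0826) and MSC replicate 1 (0.206). Leaving out both of these libraries gave 10 calls for Sham against NT (0.648% of all genes) and 14 for DPSC against NT (1.39%). Leaving out the 3 libraries high in lens markers gave 7 for Sham against NT (0.551% of all genes), 1 for MSC against Sham (1.17%) and 2 for MSCEPO against Sham (0.441%). The median of DPSC, then 1 library, was 0.83 against Sham and 1.77 against NT. The median between DPSC and MSCEPO turned to 0.01. Beyond the construction of each alternative (fewer libraries, other weights), the cause was not tested.

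With the replicate number as a block, 2 members were called for Sham against NT and 5 for DPSC against NT. The numbers did not pair the retinas throughout. Of 30 same-numbered pairs of libraries in different groups, 12 had deviations from their group means that correlated above 0.1 (range -0.44 to 0.65, median -0.02, against -0.01 for other pairs). Replicate 3 of NT, MSC, MSCEPO and DPSC correlated with each other at 0.08 to 0.65, and Sham replicate 3 with these at -0.44 to -0.06. The member level was lowest in replicate 3 in all 5 groups. The stromal gene Dcn and the melanosome gene Pmel were lowest in replicate 3 of each group but Sham, where they were highest. Dcn was at 7.65, 8.95, 7.95 and 9.24 in replicate 3 of NT, MSC, MSCEPO and DPSC and at 11.28 in Sham. Pmel was at 9.81, 9.29, 8.99 and 10.01 and at 12.23. Thy1 of the stromal list ran otherwise, highest in replicate 3 of MSC, MSCEPO and DPSC. The part of pigment and stromal cells in the member level and what the number stands for were not tested. No other count of called members moved by more than 1.5 times under the block. Of 15424 genes, the members with the lowest rlog values are the most shrunken, and without counts no limit of detection can be set.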
